A study of Mus musculus with 2 samples.

Results

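Interleukin-4 (Il4) and 9 interleukin receptor chains (Il4ra, Il13ra1, Il2rg, Il10ra, Il10rb, Il6ra, Il6st, Il21r and Il17ra) were described on 1 array of small intestinal lamina propria eosinophils and 1 array of dendritic cells from the same tissue. Members were taken as every probe set whose only annotated gene, with its symbol updated, was 1 of these 10 genes. This gave 21 of 22690 probe sets, for 9 of the 10 genes. Il2rg, the common gamma chain, had no probe set that the annotation names, so its level is not analysed here.

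Both populations were sorted by flow cytometry from C57BL/6 mice aged 8 weeks, and both were unstimulated. The dendritic cell gate was CD11c+MHCII+, and the eosinophil gate was CD11b+CD11c(int)MHCII-SiglecF+. The labels give no transgene, treatment or genotype other than the strain, and how many mice were behind a sort was not given in the sources used here. Each population had a single array and therefore no replicate error, so no test was made and every difference describes these arrays only.

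Interleukin-4 is the cytokine that drives type 2 immunity. It signals through the alpha chain encoded by Il4ra, which pairs either with the common gamma chain in a receptor for IL-4 alone or with the chain encoded by Il13ra1 in a receptor shared by IL-4 and IL-13, and both forms activate the transcription factor STAT6. The other chains belong to neighbouring systems: Il10ra and Il10rb form the IL-10 receptor, Il6ra and the signal transducer gp130 (Il6st) form the IL-6 receptor, Il21r pairs with the common gamma chain, and Il17ra is shared by receptors of the IL-17 family. Eosinophils are a known source of IL-4, and IL-10 is a known regulator of myeloid cells of the gut.

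The sequences upstream of 4 members are shown because Il4 and Il6st were the members furthest apart on the arrays, and Il4ra and Il13ra1 encode the chains that bind IL-4. Each is the 250 bases before a RefSeq start site (build GRCm38.p6), written on the gene's own strand. Capitals mark matches to TTCNNNNGAA, the spacing preferred by STAT6, to TTCNNNGAA, the spacing of other STAT factors, and to GGAAA, the core bound by NFAT factors (TTTCC on the other strand). The windows are chr11:53618666-53618915 (minus strand) for Il4, chr7:125552021-125552270 (plus strand) for Il4ra, chrX:36111858-36112107 (plus strand) for Il13ra1 and chr13:112463820-112464069 (plus strand) for Il6st.
Il4: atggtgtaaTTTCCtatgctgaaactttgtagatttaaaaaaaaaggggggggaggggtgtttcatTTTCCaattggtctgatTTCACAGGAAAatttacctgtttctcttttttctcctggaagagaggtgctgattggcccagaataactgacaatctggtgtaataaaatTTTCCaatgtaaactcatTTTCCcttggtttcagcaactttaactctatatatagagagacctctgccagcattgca
Il4ra: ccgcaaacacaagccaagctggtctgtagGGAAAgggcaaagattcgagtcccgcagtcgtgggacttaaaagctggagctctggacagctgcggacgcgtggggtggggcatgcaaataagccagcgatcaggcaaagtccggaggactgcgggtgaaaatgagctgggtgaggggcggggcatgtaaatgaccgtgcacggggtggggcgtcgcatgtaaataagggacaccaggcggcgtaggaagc
Il13ra1: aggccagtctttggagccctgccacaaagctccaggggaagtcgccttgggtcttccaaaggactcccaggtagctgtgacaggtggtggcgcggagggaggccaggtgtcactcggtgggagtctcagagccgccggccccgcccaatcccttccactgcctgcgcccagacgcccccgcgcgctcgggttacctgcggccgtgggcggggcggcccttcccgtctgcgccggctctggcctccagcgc
Il6st: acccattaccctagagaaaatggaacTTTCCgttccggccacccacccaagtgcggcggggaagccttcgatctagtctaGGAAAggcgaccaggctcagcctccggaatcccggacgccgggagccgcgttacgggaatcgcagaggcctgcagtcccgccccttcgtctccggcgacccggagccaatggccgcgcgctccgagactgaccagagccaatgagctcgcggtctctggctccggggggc

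Of the members' windows, only the upstream window of Il4 held the STAT6-type spacing. The match began at base -167, counted from -1 just before the start site, and it overlapped a GGAAA core beginning at base -161. The other 4 cores of the same window, on either strand, began at bases -241, -184, -77 and -59. TTCNNNNGAA was found in 5.85% of 32851 upstream windows of the same length, TTCNNNGAA in 7.02% and GGAAA in 55.6%. Il4ra held 1 GGAAA core and Il6st held 2, while the window of Il13ra1 held none of these letters. The windows of Il2rg, Il6ra and Il21r, which the table also holds, had neither STAT spacing. The motif AGATAA, bound by GATA factors and present on either strand in 9.99% of all windows, was matched in Il6ra only. A second Il4 window, at an inner start site, held none of the 4 motifs. GC content was 37.6% in the Il4 window shown and 59.6% to 70.8% in the windows of Il4ra, Il13ra1 and Il6st. These matches are descriptions of letters, and no binding was measured.

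The deposited values are linear signals, scaled so that the mean without the lowest and highest 2% of signals was close on both arrays (500.3 units in dendritic cells and 500.2 in eosinophils). A floor was set at the median of all signals, 135 units, and 47.2% of probe sets were at or above it in dendritic cells and 52.8% in eosinophils. A gene is called measured where it reached the floor on at least 1 array. The 95th percentile of genes of germ cells, lens, hair, olfactory neurons and retina, used as background, was 199 units. A signal between 135 and 199 units may thus be background, and a fold against such a signal may be a lower bound. This limit pools both arrays. Over it were 4 of 33 background genes in eosinophils, reaching 345 units, and 0 in dendritic cells, reaching 192 units. A signal of 199 to 345 units in eosinophils may therefore also be background. Of 7 eosinophil markers with a probe set, 6 were above the floor in eosinophils and 1 in dendritic cells, with Prg2, named after its values were seen, under it on both arrays. All 11 dendritic cell markers were above the floor in dendritic cells, against 5 in eosinophils. The gates used SiglecF and MHCII, so Siglecf, H2-Aa, H2-Ab1 and H2-Eb1 on these lists are no independent check of identity. Of 10 macrophage genes, 5 were above the floor in dendritic cells and 4 in eosinophils. Cd14 gave 2641 units in dendritic cells and 100 in eosinophils, and Cd68 gave 2573 and 672 units. Mertk ran the other way, with 59.1 and 258 units. The part of macrophages in either array was not tested. The ratio of 3′ to 5′ control signals was 9.0 in dendritic cells and 6.38 in eosinophils for beta-actin, and 6.58 and 9.81 for Gapdh. The 5′ signals were thus much lower than the 3′ signals on both arrays, and the controls ranked the arrays in opposite orders. The effect of this on single probe sets was not tested.

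Il4 was the member with the largest excess in eosinophils. Its single probe set gave 846 units in eosinophils against 146 units in dendritic cells. The eosinophil signal was well over the background range, and the dendritic cell signal lay inside it. The difference was 2.53 on the log2 scale (5.79-fold), so with a dendritic cell signal that may be background the fold may be a lower bound. With the floor raised to the background range the difference was 2.09, and it was 1.49, no longer 4-fold, after centring on 18 spike controls of the hybridisation step, whose median was higher by 2.06-fold in eosinophils.

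Il4 is also made by mast cells, basophils and T cells, so their markers are given beside it. None of 12 mast cell and basophil genes was above the floor on the eosinophil array, where the brightest, Kit, the stem cell factor receptor, gave 110 units. Kit gave 291 units in dendritic cells, and 10 of the 12 genes were under the floor on both arrays. Summed over the list, the signal came to 579 units in eosinophils and 1095 in dendritic cells, mostly from genes under the floor. Of 9 T cell and innate lymphoid genes, 4 were above the floor in eosinophils and 3 in dendritic cells, with summed signals of 1314 and 1399 units. Cd3e, a chain of the T cell receptor complex, gave 336 units in eosinophils against 557 units in dendritic cells. Cd28, a costimulatory receptor of T cells, had the direction of Il4, with 231 units in eosinophils against 5.01 units in dendritic cells (at least 1.71-fold). Only 1 of the 2 probe sets of Cd28 was measured. The eosinophil signals of Cd3e and Cd28 were under the brightest background gene there (345 units), so each may be background. A total of 4 of the 9 genes were under the floor on both arrays. The part of T cells, mast cells or basophils in the Il4 signal was not tested. On bulk arrays of sorted cells, fewer cells with the transcript and less transcript per cell cannot be told apart.

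**Figure D1:**
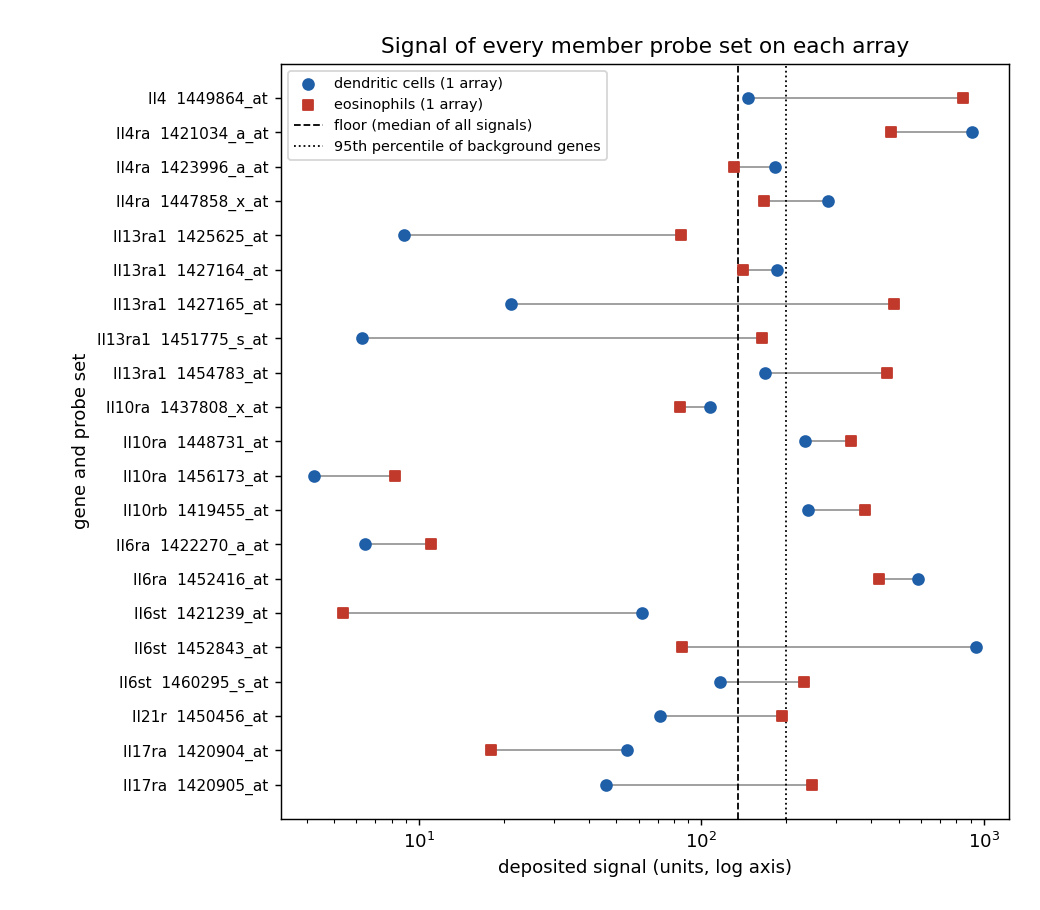
Deposited signal (log axis, in units) of each of the 21 member probe sets on the dendritic cell array (circles) and the eosinophil array (squares), with the floor at 135 units dashed and the 95th percentile of background genes at 199 units dotted. The Il4 pair runs from 146 to 846 units, and the Il6st probe set 1452843_at runs the other way, from 936 units in dendritic cells to 85.3 units in eosinophils.

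Il4ra, the alpha chain shared by both IL-4 receptors, was above the background range on both arrays and brighter in dendritic cells. The probe set that stands for it (1421034_a_at, the one with the highest mean signal) gave 908 units in dendritic cells and 469 in eosinophils, a difference of -0.95 on the log2 scale (1.94-fold). The other probe sets gave 281 units against 167 units (1447858_x_at, -0.75) and 182 units against 130 units, the latter under the floor (1423996_a_at, at least 1.35-fold). All 3 probe sets therefore had the same direction, the reverse of that of Il4. Scaling alternatives moved the Il4ra difference between -1.99 and -0.74 without a change of sign.

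Il13ra1, which pairs with the alpha chain to bind IL-4 or IL-13, was brighter in eosinophils in 3 of its 4 measured probe sets. The representative probe set, 1454783_at, gave 453 units in eosinophils against 168 units in dendritic cells, 1.43 on the log2 scale (2.70-fold), with the dendritic cell signal inside the background range. Probe set 1427165_at gave 482 units against 21.2 units, at least 3.57-fold. Probe set 1451775_s_at gave 164 units, inside the background range, against 6.28 units, at least 1.22-fold. These agreed in direction, but 1427164_at gave 140 units in eosinophils against 185 units in dendritic cells, both inside the background range. Probe set 1425625_at was under the floor on both arrays (84.8 and 8.84 units). The mean of all probe sets left a difference of 0.65, and spike centring left 0.39.

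Il4ra and Il13ra1 were thus both over the background range on the eosinophil array, while on the dendritic cell array Il4ra was over it and no probe set of Il13ra1 was. Il13ra2, which encodes a decoy receptor for IL-13, was under the floor on both arrays (93.6 units in eosinophils against 88.4 units in dendritic cells). Among chains that work with the common gamma chain, Il2rb and Il9r were under the floor on both arrays. Il9r was chosen after its values were seen. Il7r, the IL-7 receptor alpha chain, gave 352 units in dendritic cells and 213 in eosinophils (1.65-fold). Il2ra, the IL-2 receptor alpha chain, gave 183 units in dendritic cells and 91.4 in eosinophils, and Il15ra gave 43.9 and 147 units. The TSLP receptor chain Crlf2 was bright on both arrays, with 1500.0 units in dendritic cells and 1379 in eosinophils, and its direction changed among the scalings (-1.16 to 0.097 on the log2 scale). Of 7 genes in this list 4 were measured, none was 4-fold apart, and the median was -0.28 on the log2 scale against 0.16 over all measured genes.

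Il21r, the IL-21 receptor chain, gave 192 units in eosinophils against 71.2 units in dendritic cells. The eosinophil signal is inside the background range and the dendritic cell signal is under the floor, so the difference of at least 1.43-fold may be background. It was lost as a ratio after spike centring, with both sides then under the floor. The gene lies next to Il4ra on the chromosome. Because the Il21r difference may be background, its sign is not set against that of Il4ra.

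The chains of the IL-10 receptor were above the background range on both arrays and slightly brighter in eosinophils. Il10ra, the ligand-binding chain, gave 337 units in eosinophils against 232 units in dendritic cells (1448731_at, 0.54 on the log2 scale, 1.45-fold). Its other probe sets, 1437808_x_at and 1456173_at, were under the floor on both arrays. Il10rb, the accessory chain shared with IL-22 and lambda interferon receptors, gave 380 units in eosinophils against 239 units in dendritic cells (0.67 on the log2 scale, 1.59-fold). Both differences were smaller than 1 pooled SD between probe sets of the same gene, 0.73 on the log2 scale over 4402 probe sets of 1766 genes, and both changed sign after spike centring (-0.50 and -0.37). That SD measures disagreement between probe sets and not between animals.

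Il10 itself, the ligand, was under the floor on both arrays (121 units in dendritic cells and 9.85 in eosinophils). Among the related class II receptor chains, all 4 with a probe set were over the background range on both arrays. Ifnar1, a chain of the type I interferon receptor, gave 3748 units in dendritic cells and 913 in eosinophils (4.10-fold), and its partner Ifnar2 gave 756 and 857 units. The interferon gamma receptor chain Ifngr1 gave 827 units in dendritic cells and 443 in eosinophils (1.87-fold), and Ifngr2 gave 448 and 485 units. The differences of Ifnar2 and Ifngr2 (0.18 and 0.11 on the log2 scale) were smaller than the probe set SD and changed sign after spike centring (-0.86 and -0.93). The second probe set of Ifnar2 differed by -0.48, the direction of Ifnar1, and that of Ifngr2 by 0.57, the direction of its first. No direction is read for Ifnar2 or Ifngr2.

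Il6st, the gp130 signal transducer, was the member with the largest excess in dendritic cells, and its probe sets disagreed. The representative probe set, 1452843_at, gave 936 units in dendritic cells and 85.3 in eosinophils, under the floor, a difference of at least 6.95-fold (-2.80 on the log2 scale). Probe set 1421239_at stayed under the floor, with 61.5 units in dendritic cells and 5.36 in eosinophils. Probe set 1460295_s_at ran the other way, with 231 units in eosinophils against 117 units in dendritic cells, at least 1.72-fold. The suffix "_s_at", also carried by the Il13ra1 probe set 1451775_s_at, marks a probe set whose probes can match more than 1 transcript. With all probe sets averaged the difference was only -0.49 and with the dimmest probe set there was no ratio. The call for Il6st thus rests on 1 of 3 probe sets.

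Il6ra, which binds IL-6 and recruits gp130, was above the background range on both arrays. Probe set 1452416_at gave 583 units in dendritic cells and 425 in eosinophils (-0.46 on the log2 scale, 1.37-fold), which is smaller than the probe set SD. Its second probe set, 1422270_a_at, stayed under the floor on each array (6.46 units in dendritic cells and 11.0 in eosinophils). Both Il6ra and the representative probe set of Il6st were over the background range in dendritic cells. In eosinophils only Il6ra and the discordant Il6st probe set were, the latter under the brightest background gene there (345 units). Of 9 other gp130-type receptor genes with a probe set, 3 were measured and none was 4-fold apart. Il27ra, the IL-27 receptor chain, gave 248 units in dendritic cells and 7.72 in eosinophils, at least 1.84-fold. Lifr (147 units) and Il12rb1 (151 units) reached only the background range in eosinophils and were under the floor in dendritic cells. The list median was 0.13 under the deposited scale and -0.83 with the floor at the 25th percentile of signals.

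Il17ra, the chain common to IL-17 receptors, was above the background range in eosinophils only. Probe set 1420905_at gave 247 units in eosinophils against 45.8 units in dendritic cells, at least 1.83-fold (0.87 on the log2 scale). Without the floor its difference was 2.43, past 4-fold. The second probe set, 1420904_at, was under the floor on both arrays and ran the other way, with 17.9 units in eosinophils against 54.7 units in dendritic cells. Il17rb, Il17rc, Il17rd and Il17re, the other chains of the family, were under the floor on both arrays, and these were chosen after their values were seen. The adaptor Traf3ip2, which IL-17 receptors recruit, gave 210 units in dendritic cells and 155 in eosinophils (1.36-fold), the latter inside the background range.

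**Figure D2:**
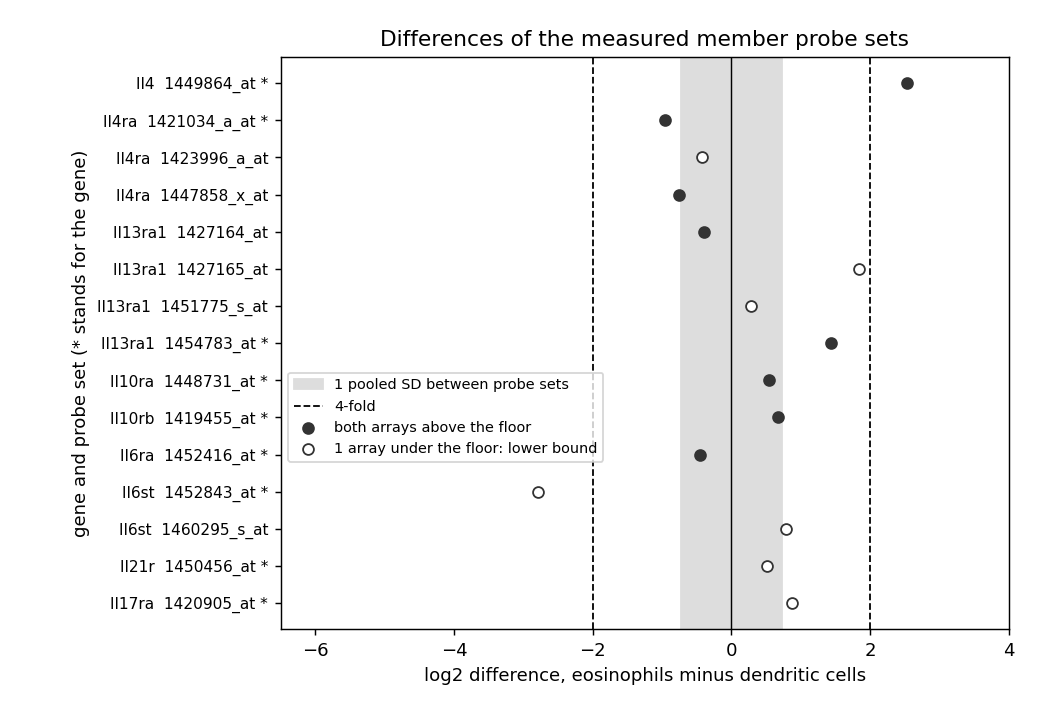
Log2 difference, eosinophils minus dendritic cells, of the 15 member probe sets above the floor on at least 1 array; open points are lower bounds, the grey band is 1 pooled SD between probe sets (0.73), dashed lines mark 4-fold, and a star marks the probe set that stands for the gene. Il4 at 2.53 and the Il6st probe set at -2.80 lie beyond 4-fold, and the other Il6st point lies on the opposite side at 0.78.

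Over the 9 genes measured, 1 (Il4) was 4-fold or more brighter in eosinophils and 1 (Il6st) in dendritic cells, against 5.35% of the 7994 measured genes in eosinophils and 5.35% in dendritic cells. At 2-fold, 2 members (Il4 and Il13ra1) were brighter in eosinophils, against 19.0% of genes, and 1 in dendritic cells, against 15.5%. The remaining 6 members were under 2-fold apart, as were 65.5% of all measured genes. The even split over all genes (428 in each direction) became 161 in eosinophils and 1151 in dendritic cells after spike centring, 316 and 572 after median centring, and 531 and 347 after centring on housekeeping genes. With 9 members these counts are not read as particular to the receptor chains. In direction, 6 members were brighter in eosinophils and 3 (Il4ra, Il6ra and Il6st) in dendritic cells, and the median difference was 0.54 beside 0.16 on the log2 scale over all genes. The 10 measured background genes had a median of 0.51. Of the 9, 4 (Il4ra, Il10ra, Il10rb and Il6ra) were over the background range on both arrays, and each of these 4 was under 2-fold apart on the deposited scale. Il4ra passed 2-fold towards dendritic cells under 4 of the 5 other scalings: median centring (-1.23 on the log2 scale), quantile normalization (-1.05), loess (-1.09) and spike centring (-1.99).

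**Figure D3:**
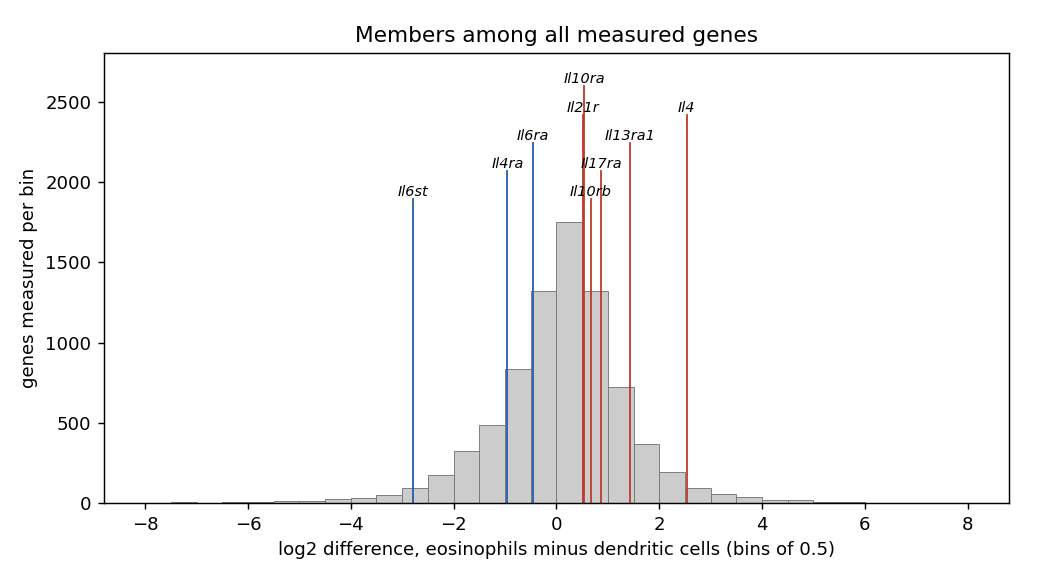
Number of measured genes per bin of log2 difference (eosinophils minus dendritic cells, bins of 0.5, 7994 genes in all), with a line at the value of each member, red where brighter in eosinophils and blue where brighter in dendritic cells. Il4 at 2.53 and Il6st at -2.80 lie beyond 4-fold, with floored signals as in the text, and the other 7 members lie between -0.95 and 1.43.

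The ligands of these receptors were mostly dim. Of 32 ligand genes in 4 lists, 25 had a probe set, 17 of them were under the floor on both arrays, and 3 exceeded the background range on at least 1 array. Il13, the partner cytokine of Il4, gave 23.5 units in eosinophils against 7.87 units in dendritic cells. Il6 (62.8 and 103 units), Il21 (24.2 and 35.6 units) and Il17a (50.5 and 94.9 units) were likewise under the floor in eosinophils and dendritic cells. All 8 genes of the gamma chain and type 2 list were under it on both arrays, unlike Il4. The 3 brighter ligands act through gp130 or related receptors: Clcf1, a ligand of the CNTF receptor, with 430 units in eosinophils against 220 units in dendritic cells; Lif, leukemia inhibitory factor, with 119 and 285 units; and Ebi3, a subunit of IL-27, with 1456 and 1171 units. Clcf1 and Ebi3 changed direction among the scalings, and Ebi3 was chosen after its values were seen.

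Signalling genes below these receptors were measured in larger part. Of 18 JAK, STAT and regulator genes, 14 were measured, of which 3 passed 4-fold towards eosinophils and none towards dendritic cells, and the median was -0.52 on the log2 scale. Stat6, the factor that IL-4 activates, gave 2009 units in dendritic cells and 1593 in eosinophils (1.26-fold), while the other probe set had -1.86. Jak1, the kinase bound to most of these receptors, gave 1921 and 1824 units and changed sign among the scalings. Jak3, the kinase bound to the common gamma chain, was under the floor on both arrays (89.8 units in dendritic cells and 104 in eosinophils). Tyk2, a kinase of the IL-10 receptor and of the IL-4 and IL-13 receptor, gave 523 units in dendritic cells and 169 in eosinophils, inside the background range (3.09-fold, which may be a lower bound).

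Of the STAT3 arm used by IL-6, IL-10 and IL-21, Stat3 gave 2363 units in dendritic cells and 1062 in eosinophils (2.22-fold), and its feedback inhibitor Socs3 gave 3122 and 1397 units (2.23-fold). The other measured probe sets had the same direction but smaller differences, -0.54 on the log2 scale for Stat3 and -0.36 for Socs3. Both were smaller than the probe set SD. Socs1, the inhibitor linked to IL-4 and interferon signalling, was under the floor on both arrays. The 3 genes past 4-fold towards eosinophils were Cish, a STAT5 target that restrains cytokine receptors (3283 units against 399 units, 8.24-fold), Ptpn6, the phosphatase SHP-1 (1957 units against 282 units, 6.93-fold), and Stat5b (551 units against 70.8 units, at least 4.09-fold). Stat5a, chosen after its values were seen, ran the other way from Stat5b, with 3096 units in dendritic cells and 1471 in eosinophils (2.10-fold). Stat5a and Stat5b each had 1 of 2 probe sets measured. As background, STAT5 is used by the receptors for IL-2, IL-5 and growth hormone, and the common gamma chain (Il2rg) is part of the IL-2 receptor. A second probe set of Ptpn6 differed by 1.35 on the log2 scale. Among the scalings the difference fell as low as 1.51 for Stat5b and 1.75 for Ptpn6, both under 4-fold.

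Genes known to respond to IL-4 through STAT6 in macrophages or dendritic cells did not share a direction. Of 18, 11 were measured, 2 passed 4-fold towards eosinophils and 4 towards dendritic cells, and the median was -0.64. Ccl17, a CCR4 ligand, had 18045 units in dendritic cells, where it was brighter by at least 134-fold. Ccl22, another ligand of that receptor, had 4781 units there and was at least 35.5-fold brighter. Alox15, a lipoxygenase (9996 units, at least 74.2-fold), and the transcription factor Egr2 (2636 units against 287 units, 9.18-fold) were brighter in eosinophils. Tgm2 (4.82-fold) and Klf4 (4.53-fold), chosen after their values were seen, were the other 2 genes past 4-fold towards dendritic cells. Arg1, Chil3, Ccl24, Mgl2, Clec10a, Mrc1 and Cdh1, also chosen in that way, were under the floor on both arrays. Alox15 is also on the eosinophil marker list. The 5 measured probe sets of Tgm2 ranged from -2.34 to -0.35 on the log2 scale, so not all passed 4-fold. Both probe sets of Klf4 did (-3.86 and -2.18).

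Transcription factors linked to Il4 expression were split as well. Of 10, 9 were measured, with 2 past 4-fold towards each cell type. This count depends on the probe set that stands for Gata2, a gene chosen after its values were seen. That probe set gave 226 units in eosinophils against 79.6 units in dendritic cells (at least 1.68-fold). Its other probe set differed by 3.08 on the log2 scale, past 4-fold towards eosinophils. Gata1, the factor of the eosinophil lineage, gave 1979 units in eosinophils against 60.8 units in dendritic cells (at least 14.7-fold), and Cebpb gave 2584 units against 146 units (17.7-fold). Irf4 gave 1213 units in dendritic cells and 44.4 in eosinophils (at least 9.0-fold), and Junb gave 829 and 163 units (5.09-fold). For Cebpb and Junb the dimmer signal lay inside the background range, and each fold could be a lower bound. Cebpb and Irf4 each had 1 of 2 probe sets measured, the other being under the floor on both arrays. The T helper type 2 factor Gata3 gave 197 units in eosinophils against 98.4 units in dendritic cells, no higher than the background range. The list median of 0.11 became -0.79 after spike centring.

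**Figure D4:**
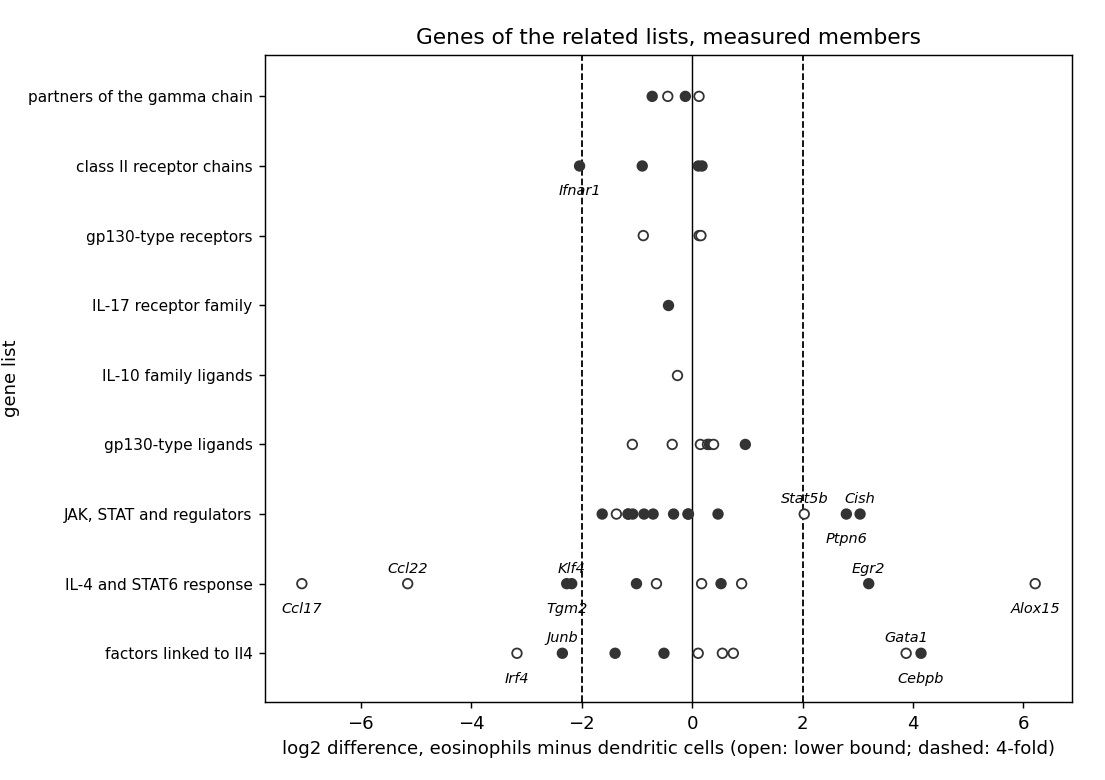
Log2 difference, eosinophils minus dendritic cells, of the measured genes of 9 lists around the members, with open points for lower bounds, dashed lines at 4-fold and names for genes beyond them. In the receptor and ligand lists only Ifnar1 lies beyond 4-fold. The signalling list holds genes beyond 4-fold on the eosinophil side only, and the response and transcription factor lists hold them on both sides.

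Over all 11 related lists together, 111 genes were named, 95 had a probe set and 54 were measured. Of the measured genes, 7 passed 4-fold towards eosinophils and 7 towards dendritic cells, 13.0% each way, beside 5.35% each way over all genes. Of these 14 genes, 13 were in the signalling, response and transcription factor lists and 1, Ifnar1, was a receptor chain. The lists were chosen with earlier results of these data known, and Alox15 is also an eosinophil marker. These shares are therefore not read as an excess particular to the lists.

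The genes most like Il4 and Il4ra were taken as those closest in log2 signal on both arrays, which over 2 arrays fixes a level and a difference and nothing more. For Il4 they were Cdk5r1 (827 units in eosinophils against 152 units in dendritic cells), Cenpq (869 and 141 units) and Atp10a (888 and 143 units), at distances of 0.066 to 0.075 on the log2 scale. For Il4ra they were Polr2i (466 and 922 units), Sertad1 (464 and 890 units) and Sft2d2 (464 and 873 units), at distances of 0.023 to 0.059.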

How the data were processed

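RNA of 1 sorted population per array was measured on 3′ expression arrays. Per the labels' protocols, Trizol-extracted total RNA was converted to biotinylated, fragmented cDNA. Each probe set has 1 deposited intensity per array, on a linear scale, which the submitters' processing notes credit to MAS5 version 5.0. Detection calls, probe-level background and a genome build were not given in the sources used here. Precision is limited by the number of arrays.

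Of 22690 probe sets, 64 were array controls. The annotation named 1 gene for 20393, several for 691 (left unnamed) and none for 1606. Symbols of 20364 were updated by Entrez identifier with a RefSeq table (GRCm38.p6), which gave 12393 genes. A signal under the floor (135 units, the median of both arrays) was raised to it before log2. A ratio with 1 side raised is written "at least", and no ratio was given with both sides under it. "Measured" means at or above the floor on at least 1 array. Among several probe sets, the one brightest in mean log2 signal represented the gene, and 4-fold counted as apart.

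Members and lists were chosen with earlier results of these data known. Genes named are the members, the 4 furthest-apart measured genes (or fewer) of a list, and Il13, Il13ra2, Il2ra, Il2rb, Il7r, Il10, Il6, Il21, Il17a, Jak1, Jak3, Tyk2, Stat3, Stat6, Socs1 and Socs3, and the 3 genes closest in signal to Il4 and to Il4ra. Any other gene is marked where it appears. Promoter sequences of 7 of the 10 member genes were matched by symbol. A planned comparison of member proteins was not made, since no protein sequences were used here. The procedure was tested on simulated data in Python 3.11.15 with numpy 2.4.6, pandas 2.3.3, scipy 1.17.1 and statsmodels 0.14.6. Alternatives were 5 scalings, 3 floors, 3 probe set rules and thresholds of 2-fold and 10-fold.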

Additional observations from a re-analysis of the deposited data

How the results depend on the processing

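The counts of members at least 4-fold apart were 1 (Il4) in eosinophils and 1 (Il6st) in dendritic cells. In eosinophils the count was 0 after spike centring and at a 10-fold threshold, and 2 with the floor at the 25th percentile, without a floor (both adding Il17ra) and at 2-fold (adding Il13ra1). In dendritic cells it was 0 with the mean of all probe sets, with the probe set of lowest mean signal and at 10-fold. For the related lists, 7 genes in each direction became 13 in dendritic cells after spike centring, 17 in eosinophils and 15 in dendritic cells without a floor, 3 and 2 at 10-fold, and 15 in dendritic cells at 2-fold. The causes were not tested, apart from those that a setting fixes by its construction. Over the member differences, 77 of 89 alternative values stayed within 1 probe set SD and 12 moved further, with a change of sign only for Il10ra and Il10rb, both after spike centring. Il6st ranged from -3.46 without a floor to -0.49 with the mean of all probe sets, and Il4 from 1.49 to 2.75. The median over all genes shifted by -0.21 (median centring), -0.11 (quantile normalization), -0.15 (loess), 0.16 (housekeeping genes) and -0.78 (spike controls), and differences move with it. Members with dim probe sets had no ratio where both sides lay under the floor: 6 members were measured with the mean of all probe sets and 4 with the dimmest probe set. No paired analysis was possible because each population had 1 array. Signals between 135 and 199 units limit what can be said of Il21r, of Il4 and Il13ra1 in dendritic cells, and of the dimmer probe sets of Il4ra and Il13ra1. Eosinophil signals under the brightest background gene there (345 units) limit Il17ra, Il10ra and the discordant Il6st probe set in the same way.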

Other observations

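The protein-coding genes next to Il4 in the RefSeq order were also on the arrays. Il13, its neighbour on one side, was under the floor on both arrays, and Rad50, a DNA repair gene beyond it, gave 208 units in eosinophils against 94.7 units in dendritic cells, at least 1.54-fold. Kif3a, a kinesin gene on the other side, gave 253 and 142 units (1.78-fold), the latter inside the background range, and Septin8 was under the floor on both arrays. Around Il4ra, the neighbour Nsmce1 gave 864 units in eosinophils against 2396 units in dendritic cells (2.77-fold), while Kdm8 and Gtf3c1 were under the floor on both arrays. No test was possible for any of these differences, and they were chosen by position alone after the data had been seen.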
